A study of Mus musculus with 4 samples.

Results

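Glypicans are proteoglycans, protein cores that carry long heparan sulfate chains and are held on the outer face of the cell membrane by a lipid anchor. The mouse family has 6 genes, Gpc1 to Gpc6, and all 6 were found by gene ID among the 55422 entries of the count tables. They were chosen by family name, with the higher CA3 counts of Gpc3 in Kat6a-cKO already known, so every comparison of genotypes in CA3 is given here as a description with no test. The measurements are single-nucleus RNA counts from the hippocampus of adult mice. They were made with the 10x Chromium kit, which gives each RNA molecule a droplet barcode and a unique molecular identifier (UMI). Of 4 libraries, 2 are Control, from mice with the genotype Kat6a-f/f, in which both copies of Kat6a, a histone acetyltransferase gene, are flanked by loxP sites. The other 2 are Kat6a-cKO, from mice that carry NEX-cre in addition to Kat6a-f/f, so the loxP-flanked alleles are shared by all 4. NEX-cre is Cre recombinase placed at Neurod6, a gene active in excitatory neurons of the forebrain, and the deletion is therefore directed to those neurons and not to inhibitory neurons or glia. The groups therefore differ in NEX-cre and its insertion at Neurod6 as well as in Kat6a, and this design cannot tell their parts apart. No age in weeks, sex, litter or day is given in the labels, and whether a library holds 1 animal or pooled animals is not given either, so p-values measure the spread between these libraries.

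Heparan sulfate chains bind secreted signals such as Wnts, Hedgehogs, FGFs and Slits, and glypicans can present such a ligand to its receptor or keep it away. Sulfotransferases pattern the chains during synthesis, the sulfatases Sulf1 and Sulf2 trim them outside the cell, and the lipase Notum can cut a glypican off the membrane. In the hippocampus glypicans are known as synaptic organizers: glypican 4 released by astrocytes promotes the formation of active synapses, and glypican 4 on axons pairs with LRRTM4 in the dentate gyrus and with GPR158 on CA3 dendrites. Glypican 3 is known as an inhibitor of Hedgehog signalling and as a partner of the guidance receptor UNC5D.

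The libraries held 171323466 to 186897245 counts, with 7911 to 8442 barcodes of at least 5000 UMIs and a median of 13924 to 14666 UMIs among them. Any pair of libraries shared 15 to 20 of those barcodes. Nuclei were clustered without the glypicans and named from marker lists, with a minimum of 5000 UMIs for neurons and 1000 for glia. A level is given in CPM, the UMIs of a gene summed over the nuclei of a class in a library, scaled so that all genes of the class in that library sum to 1000000. In all, 12 classes were tested, with 33 to 58 mossy nuclei per library as the smallest and 2710 to 3422 dentate granule nuclei as the largest. Such a sum does not tell apart fewer nuclei that express a gene from less RNA in each. The cre entry of the count tables had 0 counts in CA3 and CA1 of both Control libraries and 31 to 55 in those of Kat6a-cKO, as the labels give the groups. Neurod6 was at 74.2 and 66.5 CPM in Control CA3 against 53.7 and 46.4 CPM in Kat6a-cKO. In CA1 it was at 45.5 and 48.3 CPM against 32.8 and 28.0 CPM, and in dentate granule nuclei at 11.0 and 14.8 CPM against 6.80 and 7.08 CPM. Kat6a itself was at 63.4 and 66.1 CPM in Control CA3 and 59.1 and 66.1 CPM in Kat6a-cKO. Those counts cover the whole gene, and therefore do not check the deletion. One subcluster of CA3, led by mitochondrial genes, had 41 of its 44 nuclei from Control replicate 2. The CA3 log2 fold changes of Gpc3 and Gpc1 are also given without it.

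The 6 genes differ widely in size, and introns make up most of 5 of them. In GENCODE M21 on GRCm38, Gpc3 lies at chrX:52272426-52613950 and Gpc4 at chrX:52053021-52165252, both on the minus strand and 107 kb apart. Gpc5 (chr14:115092215-116525179) and Gpc6 (chr14:116925315-117976544) are also neighbours, on the plus strand of chromosome 14 and 400 kb apart. Gpc5 spans 1433 kb and Gpc6 1051 kb, and exons cover 0.311% and 0.611% of those spans. Gpc1 (chr1:92831645-92860779, plus strand, 29.1 kb) and Gpc2 (chr5:138273655-138280005, minus strand, 6.35 kb) are short. Nuclear RNA holds many unspliced transcripts, and a long gene gives more intronic UMIs, so levels are compared between classes for 1 gene and not between genes. The counting strand is not given in the sources used here. Genes on the opposite strand overlap Gpc1, Gpc3, Gpc5 and Gpc6, among them the antisense genes Gm14582 and A630012P03Rik in Gpc3, and their reads cannot be told apart from those of the glypican without strand. Gm43720, a protein-coding gene model at chr5:138264952-138279958, overlaps Gpc2 on the same strand over most of its length, so reads there could belong to either gene whatever the strand, and how the authors counted such reads is not given in the sources used here. Gpc4 overlaps no other annotated gene.

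RefSeq (GRCm38.p6) gave a promoter for 4 of the 6 genes, Gpc2, Gpc3, Gpc4 and Gpc5. The 250 bases before the RefSeq start are shown for Gpc3 and Gpc5, the members that most of the comparisons of genotypes below concern, in the direction of transcription and with each CG dinucleotide in capitals. That of Gpc3 is chrX:52613975-52614224 on the minus strand and that of Gpc5 is chr14:115091965-115092214 on the plus strand.
Gpc3: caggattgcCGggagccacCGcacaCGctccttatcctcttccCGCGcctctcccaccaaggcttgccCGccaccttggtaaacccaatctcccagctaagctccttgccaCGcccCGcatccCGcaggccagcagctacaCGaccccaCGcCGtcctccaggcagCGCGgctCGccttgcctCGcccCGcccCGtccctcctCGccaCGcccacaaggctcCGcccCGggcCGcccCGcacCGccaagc
Gpc5: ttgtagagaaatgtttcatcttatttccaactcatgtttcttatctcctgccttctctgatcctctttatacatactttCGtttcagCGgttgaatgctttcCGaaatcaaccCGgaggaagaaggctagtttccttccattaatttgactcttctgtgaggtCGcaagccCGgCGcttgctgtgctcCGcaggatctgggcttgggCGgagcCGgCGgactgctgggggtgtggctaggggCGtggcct
The Gpc3 window is 71.6% G and C and holds 25 CG dinucleotides, a number that 10.7% of 32841 promoter windows of the same length reach. The Gpc5 window is 51.2% G and C with 12 CG dinucleotides, which 33.5% of windows reach. Over all windows the medians were 52.4% and 6. Gpc2 and Gpc4 held 19 and 18 CG dinucleotides. These are descriptions of the sequence, and no chromatin measurement of the windows was used.

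Each glypican had its own order of classes. Gpc5 was the gene of astrocytes and of oligodendrocyte precursor cells (OPC), and Gpc4 that of dentate granule neurons. Gpc6 was that of astrocytes, OPC, interneurons and a kind of subicular neuron. Gpc3 was that of Vip interneurons, an unnamed cluster led by endothelial genes, dentate granule neurons and, in Control, Sst interneurons. Gpc1 had its highest Control mean among the tested classes in CA3. Counts of Gpc2 were near 0.

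**Figure D1:**
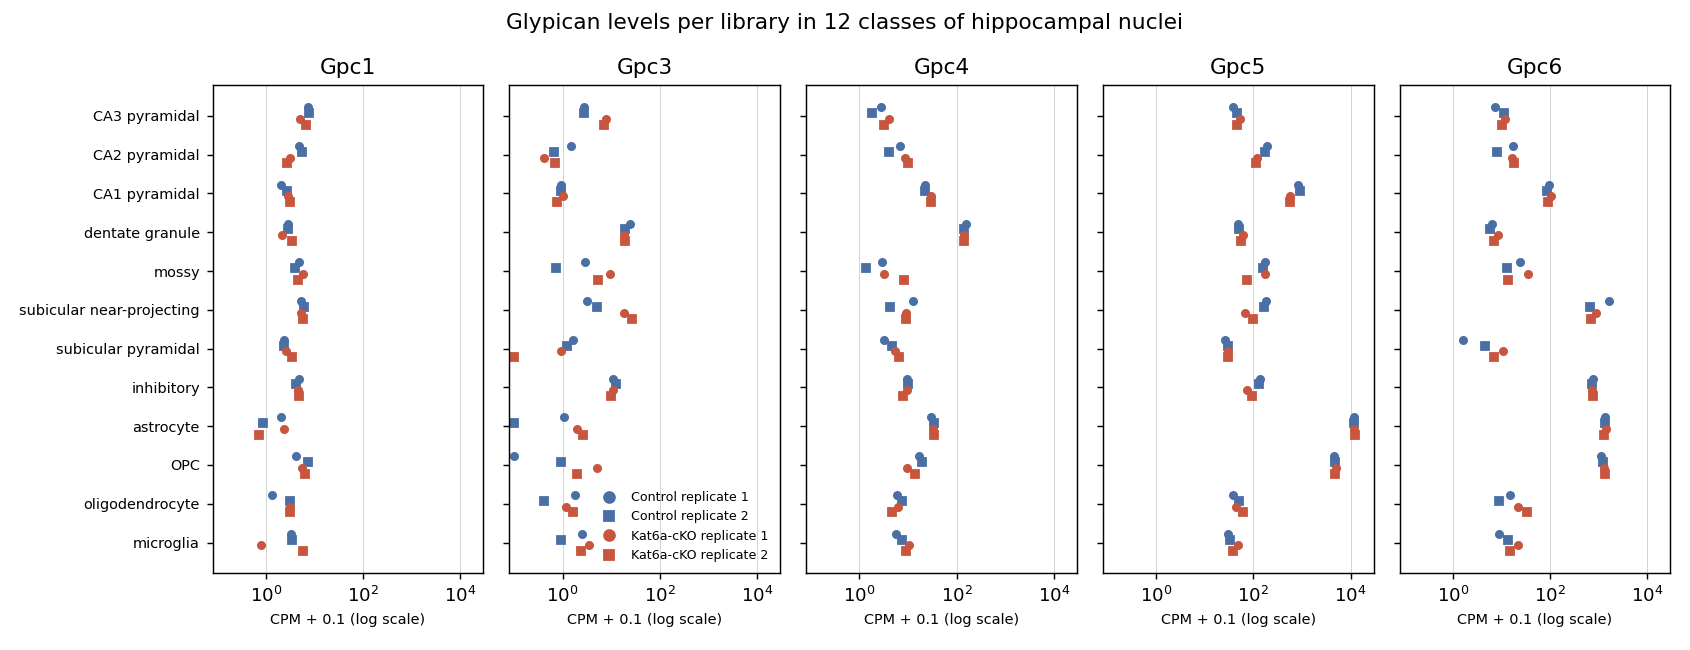
Level of 5 glypicans in each library for the 12 tested classes, in CPM with 0.1 added on a log axis (circles, replicate 1; squares, replicate 2; blue, Control; red, Kat6a-cKO). Gpc5 reached 11804 CPM in astrocytes of Control replicate 1, whereas Gpc3 and Gpc4 had their highest level among these classes in dentate granule nuclei or, for Gpc3 in Kat6a-cKO, in subicular near-projecting nuclei.

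Gpc5, which encodes glypican 5, stood at 11804 and 11527 CPM in astrocytes of the Control libraries and at 11934 and 12423 CPM in those of Kat6a-cKO. This made up 1.17% of the astrocyte UMIs in Control, and Gpc5 was the gene of rank 4 in that class. Such a rank also carries the intronic UMIs that a long gene gives, and is a description only. OPC followed with 4623 and 4902 CPM in Control against 5074 and 4828 CPM in Kat6a-cKO, rank 12. CA1 came next among the tested classes, at 828 and 891 CPM in Control, and the ranges of astrocytes, OPC and CA1 did not overlap. An unnamed excitatory cluster led by Bmpr1b, Adam12 and Kit, with values given further down, overlapped CA1 over the 4 libraries. CA2, subicular near-projecting, mossy and inhibitory nuclei lay between 128 and 190 CPM in Control, and neighbours in that order overlapped over the 4 libraries. Dentate granule nuclei, oligodendrocytes, CA3, microglia and subicular pyramidal nuclei were lowest, between 26.3 and 61.5 CPM over all libraries. The place of subicular pyramidal nuclei rests on how the class was drawn: their Control mean of Gpc5 was 28.0 CPM here, 352 CPM at Leiden resolution 2 and 314 CPM with doublet calls kept, above the CA2 mean in both. With doublet calls kept, Gpc5 also had a Control mean of 73.3 CPM in CA3, against 42.7 CPM, and of 6050 CPM in astrocytes, against 11666 CPM, still the highest of the classes. Free RNA, measured in barcodes of 10 to 100 UMIs, held Gpc5 at 277 to 352 CPM. At the highest share of free RNA that foreign markers allow, this gives up to 60.4 to 79.7 CPM in dentate granule nuclei and 8.49 to 11.4 CPM in CA3. The dentate, oligodendrocyte and microglial levels of Gpc5 were therefore at or under the background, and the CA3 level was above it.

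Gpc6, which encodes glypican 6, another astrocyte-released synapse organizer, was at 1318 and 1325 CPM in Control astrocytes and 1401 and 1307 CPM in Kat6a-cKO. OPC had 1136 and 1248 CPM in Control against 1275 and 1362 CPM in Kat6a-cKO, and the 2 classes overlapped. With doublet calls kept, the Control mean of Gpc6 in astrocytes was 725 CPM instead of 1321 CPM, below that of OPC (939 CPM) and of subicular near-projecting nuclei (1119 CPM), so the order of these classes depends on that choice. Subicular near-projecting nuclei ranged from 663 to 1621 CPM and inhibitory nuclei from 726 to 750 CPM. That wide range came from 2 clusters with unlike levels. The cluster led by Npsr1 held Gpc6 at 3270 and 3097 CPM in Control against 3105 and 3432 CPM in Kat6a-cKO, the highest of any cluster examined here. The cluster led by Vwc2l held it at 165 and 89.5 CPM in Control against 146 and 170 CPM in Kat6a-cKO. The Npsr1-led cluster had 157 and 42 nuclei in the Control libraries and 102 and 63 in Kat6a-cKO, so the mix of the class differed between libraries.

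Interneuron clusters were given a type from marker lists. Gpc6 stood at 1230 to 1489 CPM in the Sst type, 1025 to 1122 CPM in the parvalbumin type and 1022 to 1280 CPM in the Vip type over the 4 libraries. It was at 58.3 to 224 CPM in the Lamp5 type and 56.4 to 105 CPM in the Cck type, and neither of those overlapped the first 3. Among excitatory nuclei CA1 had 87.3 to 104 CPM, and CA3, CA2, mossy, dentate granule and subicular pyramidal nuclei had 35.4 CPM or less. Of these, subicular pyramidal nuclei had a Control mean of 3.01 CPM of Gpc6 here but 231 CPM at Leiden resolution 2 and 328 CPM with doublet calls kept, where CA3 had 68.5 CPM instead of 9.34 CPM. In dentate granule nuclei, at 5.77 to 8.33 CPM, the level was under the 26.0 to 30.8 CPM that free RNA could give.

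The 4 CA1 clusters formed a graded series for Gpc6. It was at 10.4 and 12.1 CPM in Control in the cluster led by Prlr and Fibcd1, at 29.1 and 25.2 CPM in that led by Lrmp, at 136 and 134 CPM in that led by Stac and Man1a, and at 267 and 244 CPM in that led by Ndrg1 and Dcn. Dcn, a marker of ventral CA1, was at 1.51 and 1.50 CPM in the first of them and at 32.0 and 35.0 CPM in the last. Kat6a-cKO libraries showed the same order for Gpc6, with 11.4 and 15.2 CPM in the first and 230 and 249 CPM in the last. Gpc5 ran the other way at the end of the series, from 885 and 964 CPM in the Prlr-Fibcd1 cluster to 660 and 602 CPM in the Ndrg1-Dcn cluster in Control. The clusters were made from these nuclei without the glypicans, and these orders are descriptions.

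**Figure D2:**
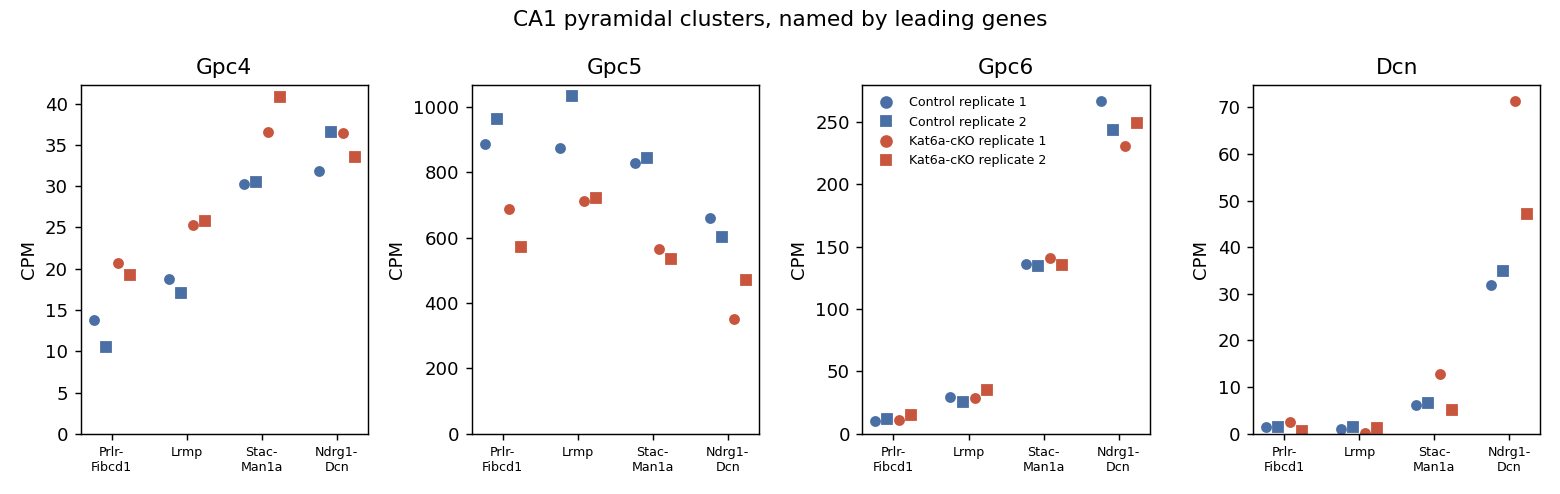
CPM of Gpc4, Gpc5, Gpc6 and the ventral marker Dcn per library in the 4 CA1 clusters, on linear axes from 0 (circles, replicate 1; squares, replicate 2; blue, Control; red, Kat6a-cKO). Gpc6 spans 10.4 to 267 CPM across the clusters in Control replicate 1, and Gpc5 in the Ndrg1-Dcn cluster stands at 660 and 602 CPM in Control against 350 and 470 CPM in Kat6a-cKO.

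Gpc4, the synapse organizer that pairs with LRRTM4 and GPR158, had its highest level in dentate granule nuclei, at 155 and 145 CPM in Control against 141 and 143 CPM in Kat6a-cKO. Astrocytes were next with 29.9 to 34.5 CPM over the 4 libraries, and CA1 had 22.0 to 29.9 CPM, so those 2 classes overlapped. OPC, at 9.30 to 19.6 CPM, and inhibitory nuclei, at 7.63 to 9.99 CPM, overlapped each other. The other classes lay between 1.29 and 12.8 CPM, with CA3 at 2.68 and 1.72 CPM in Control. Within the dentate granule class all 4 clusters carried Gpc4, from 92.6 to 101.1 CPM in the lowest cluster to 195 to 214 CPM in the highest. Free RNA held 35.2 to 44.6 CPM of Gpc4, and the share allowed in astrocytes could not be bounded, so the astrocyte level cannot be told apart from free RNA.

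Gpc3 was at 24.5 and 19.1 CPM in dentate granule nuclei of the Control libraries and at 18.3 and 19.3 CPM in those of Kat6a-cKO. It differed among dentate clusters, at 35.2 and 32.9 CPM in 1 cluster and 11.4 and 8.05 CPM in another in Control. Inhibitory nuclei had 10.0 to 12.6 CPM, and within that class the Vip type stood at 57.5 and 58.8 CPM in Control against 63.4 and 75.9 CPM in Kat6a-cKO. The parvalbumin type had 0 to 3.03 CPM. An unnamed cluster led by the endothelial genes Flt1 and Adgrl4 held 54.1 to 86.5 CPM, from 11 to 14 counts a library. CA1 was at 0.807 and 0.812 CPM in Control, and free RNA could give at most 0.374 to 0.502 CPM there over the 4 libraries.

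Gpc1, which encodes a glypican of axons, ranged from 0.627 to 7.51 CPM over the 12 classes. CA3 had the highest Control mean, with 7.39 and 7.51 CPM, and it was the class whose 2 Control libraries lay above both Control libraries of every other tested class. Over the 4 libraries CA3 overlapped OPC, subicular near-projecting and other classes. Cajal-Retzius nuclei, which were too few to test, had 12.5 to 37.0 CPM from 2 to 3 counts a library. Gpc2, the glypican of the developing nervous system, had 0 counts in all 4 libraries in 7 of the 12 classes and at most 2 counts per library in the others. In dentate granule nuclei, the deepest class, Gpc2 had 0 counts in both Control libraries. Since Gm43720 overlaps most of Gpc2 on the same strand, reads of Gpc2 may have been left out or given to that gene, and these counts do not show that Gpc2 is not expressed.

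Across the 12 classes, likeness to each glypican was measured as Pearson's r of log2(CPM + 1) over the Control means, among 9887 genes. The classes share libraries and differ in depth, and these are descriptions. Trpc6, a cation channel gene, was most like Gpc3 (r = 0.92), followed by Stk32c (0.88) and Rps6ka2 (0.87). Rfx3 (0.87), Dlg3 (0.84) and Ankrd6 (0.82) were most like Gpc4. Pou3f2 (0.93), Ddhd1 (0.91) and D130040H23Rik (0.90) were most like Gpc5. Ntn4, which encodes a netrin, was most like Gpc6 (0.92), ahead of Zbtb7c (0.88) and Adra1a (0.87). Tbc1d24 (0.82), Pde4d (0.82) and Snx7 (0.78) were most like Gpc1. Gpc5 and Gpc6, the chromosome 14 neighbours, had r = 0.76, and Gpc3 and Gpc4, the X chromosome neighbours, had r = 0.39. Trpc6 is 1 of the 7 markers used to name the dentate class.

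Kat6a-cKO was compared with Control in each class with edgeR's quasi-likelihood test. Log2 fold changes are given with a standard error (SE), positive where Kat6a-cKO is higher. The SE was derived from the test, as the absolute log2 fold change divided by the square root of the F statistic. A gene was called at a Benjamini-Hochberg adjusted p under 0.05 over all genes tested in the class. The 6 glypicans gave 42 fits in the 11 classes other than CA3, since members with low counts did not pass the filter on low counts everywhere, and 0 were called. At an unadjusted p under 0.05 there were 14 of the 42, where 8.05% of all genes tested in those classes had such a p. DESeq2, as an alternative, called 1 glypican in CA1, where it called 0.69% of all genes, 1 in CA2 (0.0729% of genes) and 1 in inhibitory nuclei (0.0816%). In subicular near-projecting nuclei it called 2 (0.208%).

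Few genes of any kind were called at 2 libraries against 2. The share of all tested genes called was 0.0271% in CA3, 0.024% in CA1, 0.0273% in CA2, 0.375% in dentate granule, 0.602% in mossy and 0.032% in subicular near-projecting nuclei. It was 0.994% in subicular pyramidal nuclei, 0.0272% in inhibitory nuclei, 0.175% in astrocytes, 0.264% in OPC, 0.00855% in oligodendrocytes and 0.0696% in microglia. Libraries of the 2 groups did not overlap for 35.3% of genes in oligodendrocytes to 39.4% in subicular pyramidal nuclei, so a gap between the groups is common.

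**Figure D3:**
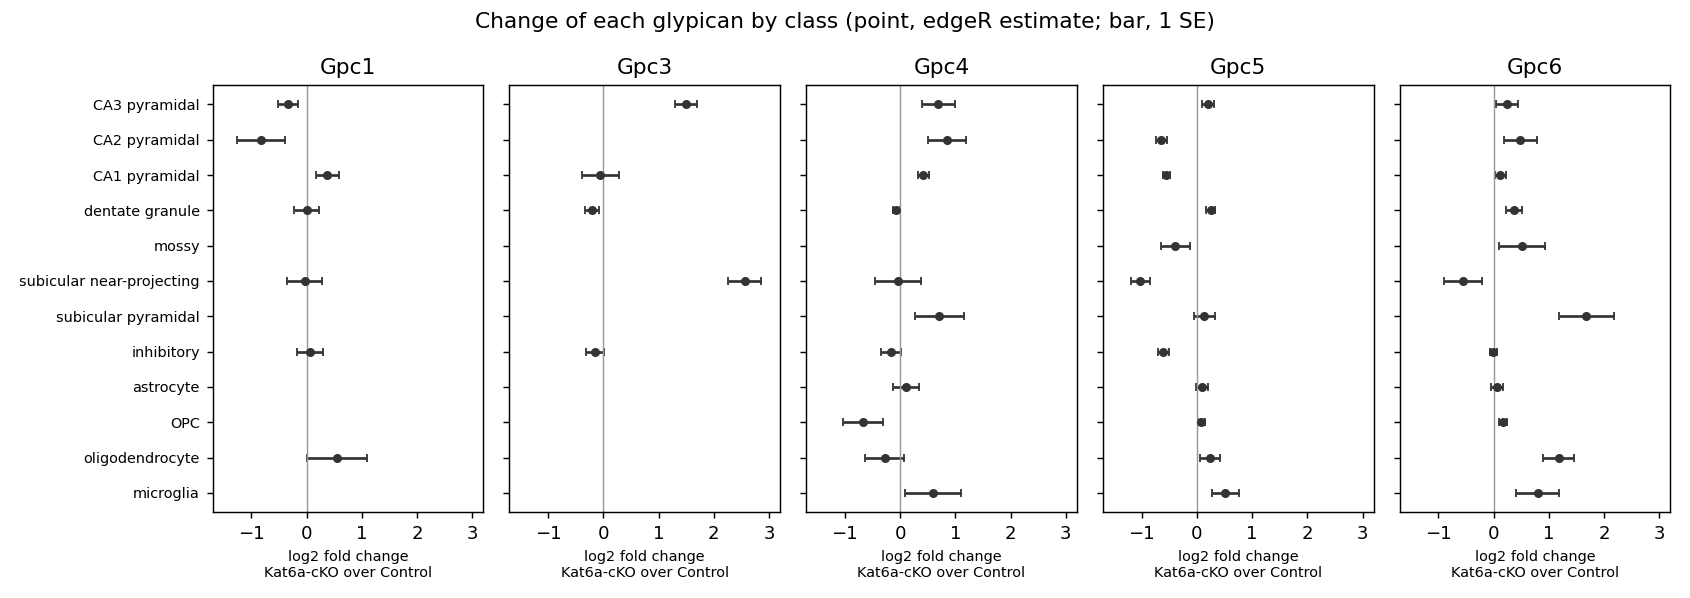
Log2 fold change of each tested glypican per class, Kat6a-cKO over Control (point, edgeR estimate; bar, 1 SE; classes in which a gene did not pass the filter on low counts have no point). Gpc3 lies at 1.50 in CA3 and 2.55 in subicular near-projecting nuclei and near 0 in CA1 and dentate granule nuclei, and Gpc5 lies below 0 in CA1, CA2, subicular near-projecting and inhibitory nuclei.

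The lower Gpc5 of CA1 had 14065 or more counts per library behind it. CA1 nuclei held Gpc5 at 828 and 891 CPM in the Control libraries and at 577 CPM in both Kat6a-cKO libraries. The groups were apart, as for 37.5% of genes in CA1. The log2 fold change was -0.55 (SE 0.07, n = 2 against 2, edgeR adjusted p = 0.0686). It was negative under all 11 alternatives tried, from -0.58 to -0.53, and past the threshold in 6 of them, with adjusted p from 2.62e-11 to 0.272. With all 4 libraries, the settings past it were DESeq2 (0.69% of all genes called), no filter on low counts (1.77%) and the replicate block (0.054%). The main fit called 0.024%. Whether a fit with 1 library left out passed depended on the library. Each such fit leaves 1 library alone in its group and called a larger share of all genes than the main fit. Both the share of CA1 nuclei with a Gpc5 UMI and the UMIs in such a nucleus were lower in both Kat6a-cKO libraries. Nuclei with at least 1 Gpc5 UMI were 94.1% and 94.9% in Control against 89.2% and 91.2% in Kat6a-cKO, and 83.5%, 86.1%, 75.7% and 77.5% once each nucleus was thinned to 5000 UMIs. Nuclei with a UMI held a mean of 16.7 and 16.3 in Control and 10.9 in both Kat6a-cKO libraries.

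The same direction was measured in all 4 CA1 clusters, each fitted alone as an alternative chosen after seeing the data. In all, 15 clusters of 4 classes were fitted, with 62 glypican values, of which 2 passed the threshold as higher and 3 as lower. Of all genes, 0% to 1.04% were called per fit. The sign was that of the class in 45 of 62, and in 9 of 18 among inhibitory clusters. A cluster is part of its class, so a shared sign is partly built in and nothing is read from it. Gpc5 fell in the Ndrg1-Dcn cluster, from 660 and 602 CPM to 350 and 470 CPM (-0.62, SE 0.11, edgeR adjusted p = 0.00457, with 0.563% of genes called there). The ventral marker Dcn in that cluster was at 32.0 and 35.0 CPM in Control against 71.2 and 47.2 CPM in Kat6a-cKO. Kat6a-cKO replicate 1 had the highest Dcn and the lowest Gpc5. Another ventral marker, Col5a2, went the other way there, at 22.91 and 19.97 CPM against 12.05 and 19.39 CPM, lowest in the same library. Grp, also a ventral marker, overlapped, at 0.41 and 0.19 CPM against 0.17 and 0.68 CPM. The part of these markers in the result was not tested. Gpc5 also fell in the Stac-Man1a cluster, from 827 and 845 CPM to 566 and 534 CPM (-0.58, SE 0.08, edgeR adjusted p = 0.0422, with 0.124% of genes called). The other clusters had -0.53 and -0.38 with adjusted p of 0.0612 and 0.0861, where 0.246% and 0.457% of genes were called. Markers of astrocytes and OPC, the classes of highest Gpc5, overlapped between the groups in CA1. The summed level of 6 astrocyte markers was 13.3 and 10.5 CPM in Control CA1 and 15.9 and 10.9 CPM in Kat6a-cKO, and that of 5 OPC markers was 25.4, 31.6, 29.4 and 31.4 CPM, with no marker of either list at 0. Of 24 marker lists, 3 were higher and 6 lower in both Kat6a-cKO libraries of CA1. The higher ones were the fibroblast, Cajal-Retzius and mossy lists. The fibroblast list was at 10.7 CPM in both Control libraries against 24.4 and 11.0 CPM in Kat6a-cKO. It holds Dcn, a ventral marker given above, and so does not tell fibroblast RNA apart from Dcn of CA1 nuclei. The Cajal-Retzius list was at 7.23 and 8.38 CPM against 12.2 and 10.1 CPM. The microglial list was lower, at 114 and 141 CPM against 108 CPM in both Kat6a-cKO libraries, and so was the deep-layer excitatory list, at 80.7 and 68.8 CPM against 67.7 and 55.1 CPM. The oligodendrocyte, subicular pyramidal, dentate granule and choroid plexus lists were the other lower ones. No marker of these 9 lists was at 0, and their part in the result was not tested. Free RNA could give up to 14.1 to 17.6 CPM of Gpc5 in CA1.

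**Figure D4:**
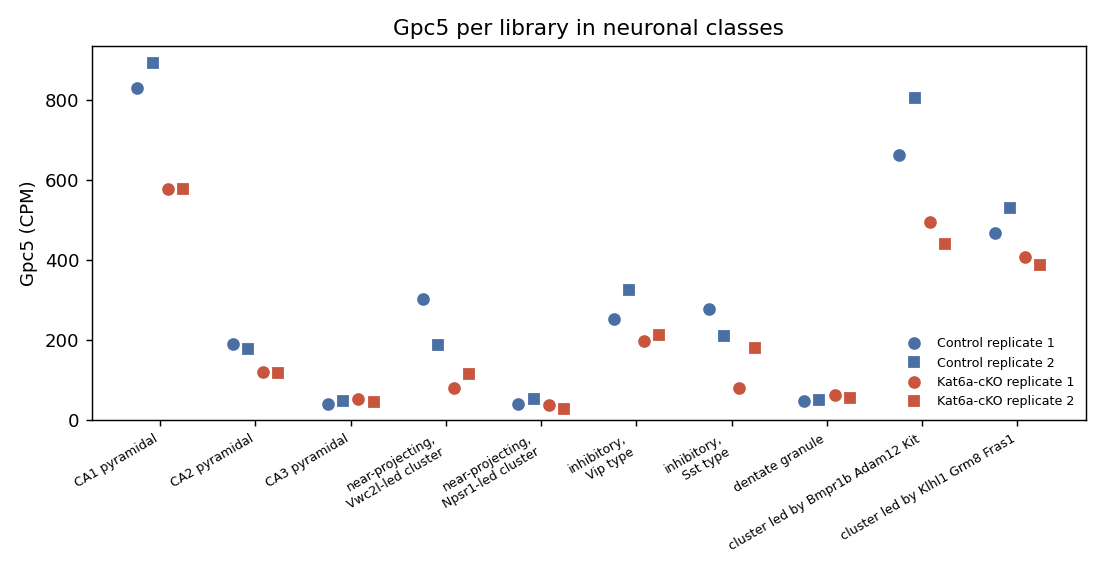
Gpc5 in CPM per library in neuronal classes and clusters, on a linear axis from 0 (circles, replicate 1; squares, replicate 2; blue, Control; red, Kat6a-cKO). CA1 stands at 828 and 891 CPM in Control against 577 CPM in Kat6a-cKO, while CA3 and dentate granule nuclei stay between 38.4 and 61.0 CPM in both groups.

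CA2, inhibitory and subicular near-projecting nuclei had lower Gpc5 in both Kat6a-cKO libraries as well, none of them past the threshold. In CA2 the values were 190 and 177 CPM in Control against 119 and 116 CPM in Kat6a-cKO (-0.64, SE 0.10, edgeR adjusted p = 0.0735). The change in CA2 was negative under all 11 alternatives, from -0.84 to -0.59. With 1 library left out, passing the threshold depended on the library, and each such fit called a larger share of all genes. Groups were apart for 36.4% of genes in CA2. Of 24 marker lists, 4 were higher in both Kat6a-cKO libraries of CA2 and 8 were lower. The CA2 list itself, of 6 genes, summed to 254 and 251 CPM in Control against 233 and 224 CPM in Kat6a-cKO, and the CA3 list of 7 genes to 1219 and 1326 CPM against 1204 and 1153 CPM, with no marker of either at 0. The immature dentate list, 1 of whose 5 genes was at 0, was at 19.9 and 20.5 CPM against 36.5 and 27.3 CPM. Their part in the result was not tested. Inhibitory nuclei, a class outside the stated target of NEX-cre, had 134 and 128 CPM in Control against 74.6 and 95.8 CPM in Kat6a-cKO (-0.61, SE 0.10, edgeR adjusted p = 0.0830, groups apart for 35.4% of genes). The change in inhibitory nuclei was negative under all 11 alternatives, from -0.78 to -0.46. With 1 library left out, passing the threshold depended on the library, and each such fit called a larger share of all genes. Among the interneuron clusters, Vip nuclei held Gpc5 at 251 and 324 CPM in Control against 197 and 212 CPM in Kat6a-cKO (-0.48, SE 0.15, edgeR adjusted p = 0.886), and Sst nuclei at 276 and 209 CPM against 79.7 and 179 CPM (-0.91, SE 0.25, edgeR adjusted p = 0.718), with 0% of genes called in either. The groups overlapped in the others. Parvalbumin nuclei had 62.0 and 69.5 CPM against 66.7 and 38.9 CPM, and Cck nuclei 69.8 and 116 CPM against 70.9 and 73.5 CPM. The Hapln1-led cluster had 100.9 and 69.3 CPM against 33.7 and 76.7 CPM, and the Reln-led cluster 22.2 and 32.4 CPM against 34.6 and 21.9 CPM. Of 24 marker lists, 6 were higher and 4 lower in both Kat6a-cKO libraries of the inhibitory class, whose own list overlapped, and their part in the result was not tested. Free RNA could give up to 15.3 to 23.0 CPM in inhibitory nuclei.

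Subicular near-projecting nuclei had Gpc5 at 178 and 162 CPM in Control against 68.2 and 99.2 CPM in Kat6a-cKO (-1.02, SE 0.17, edgeR adjusted p = 0.136, groups apart for 36.2% of genes). The change was negative under all 11 alternatives, from -1.33 to -0.67. With 1 library left out, passing the threshold depended on the library, and each such fit called a larger share of all genes than the main fit. In the Vwc2l-led cluster alone, a fit chosen after seeing the data, Gpc5 fell from 302 and 188 CPM to 78.5 and 113 CPM (-1.34, SE 0.18, edgeR adjusted p = 0.000426, with 1.04% of genes called). In the Npsr1-led cluster it was at 38.5 and 51.7 CPM in Control against 36.0 and 25.8 CPM in Kat6a-cKO (-0.40, SE 0.28, edgeR adjusted p = 0.916, with 0.222% of genes called). In the whole class 5 of 24 marker lists were higher and 4 lower in both Kat6a-cKO libraries, and their part in the result was not tested. Values of the higher lists and of some of the lower ones are given beside Gpc3. An unnamed excitatory cluster led by Bmpr1b, Adam12 and Kit had 662 and 803 CPM in Control against 493 and 438 CPM in Kat6a-cKO.

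Astrocytes and OPC, where Gpc5 was highest, had log2 fold changes of 0.09 (SE 0.11, edgeR adjusted p = 0.947) and 0.08 (SE 0.06, edgeR adjusted p = 0.832). Mossy nuclei had 172, 159, 170 and 73.0 CPM, and the sign of their change turned with 1 library, from -0.39 with all 4 to 0.10 without Kat6a-cKO replicate 2. In that class Gpc5 was past the threshold without Kat6a-cKO replicate 1 (-1.16), a fit that leaves 1 library alone in its group. In CA3 Gpc5 was at 38.4 and 46.9 CPM in Control against 52.5 and 45.3 CPM in Kat6a-cKO, and the groups overlapped.

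Dentate granule nuclei went the other way from CA1. They held Gpc5 at 47.8 and 50.3 CPM in Control and at 61.0 and 54.8 CPM in Kat6a-cKO (0.25, SE 0.08, edgeR adjusted p = 0.307), and both Kat6a-cKO libraries lay above both Control libraries, as for 17.1% of genes. Of the 4 dentate clusters fitted alone, Gpc5 rose in the one led by Stxbp6 and Spata13, from 49.7 and 56.9 CPM to 72.4 and 70.9 CPM (0.45, SE 0.10, edgeR adjusted p = 0.0449, with 0.609% of genes called). The other dentate clusters had 0.18, 0.13 and 0.26, none past the threshold, with 0.0209%, 0.426% and 0.0723% of genes called. Of 24 marker lists, 3 were higher and 4 lower in both Kat6a-cKO libraries of the dentate class. Its own list of 7 genes was at 2422 and 2387 CPM in Control against 2280 and 2226 CPM in Kat6a-cKO, and the microglial list at 179 and 208 CPM against 149 and 154 CPM, with no marker of either at 0. The astrocyte list overlapped, at 60.5 and 52.7 CPM against 66.8 and 51.9 CPM. The part of these lists in the dentate change was not tested. Free RNA itself held Gpc5 at 277 and 347 CPM in the Control libraries and 347 and 352 CPM in Kat6a-cKO, and its part in the dentate values was not tested.

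The difference between classes was tested directly for CA1 against dentate granule nuclei, with the library as a block. The log2 fold change of Gpc5 in CA1 minus that in dentate granule nuclei was -0.78 (SE 0.07, edgeR adjusted p = 0.000437), and 0.196% of genes were called. Dentate Gpc5 lay at the level free RNA could give, so this difference compares CA1 with a background-level class. It was not fitted with free RNA subtracted. For CA3 against CA1, given without a test, the change of Gpc5 was higher in CA3 by 0.77 (SE 0.09), and 0.193% of genes were called in that comparison.

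Gpc4 in CA1 was at 22.7 and 22.0 CPM in Control against 29.9 and 29.3 CPM in Kat6a-cKO (0.42, SE 0.09, edgeR adjusted p = 0.240). Both Kat6a-cKO libraries lay above both Control libraries, as for 15.1% of genes in CA1. The CA1 clusters had 13.7 and 10.5 CPM against 20.7 and 19.2 CPM, 18.7 and 17.1 CPM against 25.3 and 25.7 CPM, and 30.2 and 30.5 CPM against 36.6 and 40.8 CPM. The Ndrg1-Dcn cluster had 31.8 and 36.5 CPM against 36.5 and 33.5 CPM, with no gap. In dentate granule nuclei the change was -0.07 (SE 0.07, edgeR adjusted p = 0.837). The difference between those changes passed the threshold, with the change of Gpc4 higher in CA1 by 0.52 (SE 0.07, edgeR adjusted p = 0.0134). In that comparison 0.196% of all genes were called. CA2 had 6.76 and 3.88 CPM against 8.66 and 10.0 CPM (0.85, SE 0.35, edgeR adjusted p = 0.736). Over 11 alternatives the change in CA2 ran from 0.47 to 3.51. Free RNA could give up to 5.94 and 3.74 CPM of Gpc4 in the Control libraries of CA2 and 3.75 and 2.92 CPM in Kat6a-cKO. CA3 had 2.68 and 1.72 CPM against 4.00 and 3.12 CPM.

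Gpc3 in CA3 was at 2.68 and 2.62 CPM in the Control libraries, from 37 and 38 counts, and at 7.86 and 7.05 CPM in Kat6a-cKO, from 114 and 120 counts. Its log2 fold change was 1.50 (SE 0.20), and 1.43 (SE 0.20) without the mitochondrial subcluster, where 0.0274% of genes were called. Within CA3, both Kat6a-cKO libraries lay above both Control libraries in 4 of 6 subclusters with at least 10 nuclei in every library, and in 7 of 10 at a finer resolution. In the whole class that order held for Gpc3 and for 17.4% of all genes tested, from which nothing is read, since Gpc3 was known to differ there. The counts of 4 of 6 and 7 of 10 subclusters come from 1 run of the subclustering at each resolution and may move with small differences in it. With the subclusters weighted alike in all libraries, Gpc3 stood at 2.42 and 3.06 CPM in Control against 8.82 and 7.44 CPM in Kat6a-cKO. In CA3, nuclei with a Gpc3 UMI were 5.22% and 4.54% in Control against 10.7% and 9.57% in Kat6a-cKO, and 1.25%, 1.63%, 3.40% and 3.24% after thinning to 5000 UMIs. CA1 had 1.40% and 1.35% in Control against 1.11% and 1.02% in Kat6a-cKO, at 0.807, 0.812, 0.902 and 0.653 CPM. Free RNA could give at most 0.303 CPM in CA3. The summed level of 4 ventral CA3 markers was 44.4 and 45.3 CPM in Control CA3 and 60.1 and 47.7 CPM in Kat6a-cKO, with no marker at 0. In all, 8 of 24 lists were higher and 5 lower in both Kat6a-cKO libraries of CA3. The near-projecting list was at 7.17 and 7.51 CPM against 13.03 and 8.46 CPM, the astrocyte list at 13.3 and 14.8 CPM against 19.1 and 17.9 CPM, and the CA3 list itself at 2357 and 2429 CPM against 2331 and 2352 CPM, with no marker of them at 0. The part of the lists in the difference was not tested.

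Subicular near-projecting nuclei showed a larger difference of Gpc3. The levels were 3.08 and 4.93 CPM in Control, from 13 or more counts, and 18.7 and 26.2 CPM in Kat6a-cKO, and the groups were far apart. The log2 fold change was 2.55 (SE 0.31, edgeR adjusted p = 0.0527), and both Kat6a-cKO libraries lay above both Control libraries, as for 16% of genes. It was positive under all 11 alternatives, from 2.22 to 2.89, and past the threshold in 8 of them, with adjusted p from 2.98e-15 to 0.354. Among those 8 were DESeq2 (0.208% of all genes called), no filter on low counts (1.13%), the replicate block (1.47%) and the higher UMI minimum (0.0488%). The main fit called 0.032%. The others left out 1 library, which leaves 1 library alone in its group, and each called a larger share of all genes than the main fit. Nuclei with a Gpc3 UMI were 2.31% and 4.00% in Control against 11.0% and 14.5% in Kat6a-cKO.

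Of the 2 clusters of the class, the Vwc2l-led one held 12 and 13 of the 14 and 13 Gpc3 counts of Control and 91 and 121 of the 92 and 121 of Kat6a-cKO. There Gpc3 rose from 4.98 and 6.09 CPM to 24.4 and 31.2 CPM (2.35, SE 0.28, edgeR adjusted p = 9.27e-05), in the fit chosen after seeing the data. The Npsr1-led cluster had 0.940 and 0 CPM in Control against 0.837 and 0 CPM in Kat6a-cKO, too few counts to test. The Vwc2l-led cluster had 146 of 303 and 133 of 175 nuclei of the class in Control and 254 of 356 and 267 of 330 in Kat6a-cKO, so its part of the class overlapped between the groups. In the whole class the ventral CA3 list was at 460 and 533 CPM in Control against 805 and 809 CPM in Kat6a-cKO. The 2-gene ventral dentate list was at 9.69 and 19.0 CPM against 33.7 and 23.4 CPM. Its gene Trhr is also in the near-projecting list, so it does not mark dentate RNA in this class. The CA3 list was at 498 and 402 CPM against 385 and 288 CPM. The deep-layer excitatory list was at 770 and 1063 CPM against 1136 and 1141 CPM, the immature dentate list at 134 and 159 CPM against 179 and 172 CPM, and the astrocyte list at 20.0 and 14.4 CPM against 25.2 and 23.0 CPM. No marker of those lists was at 0. The subicular pyramidal list, with 1 of 5 genes at 0, was at 79.5 and 76.2 CPM against 59.2 and 61.1 CPM, while the list of the class itself overlapped, at 3791 and 4365 CPM against 4252 and 4330 CPM. The part of these lists in the result was not tested. Free RNA could give at most 1.29 CPM of Gpc3 in this class.

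**Figure D5:**
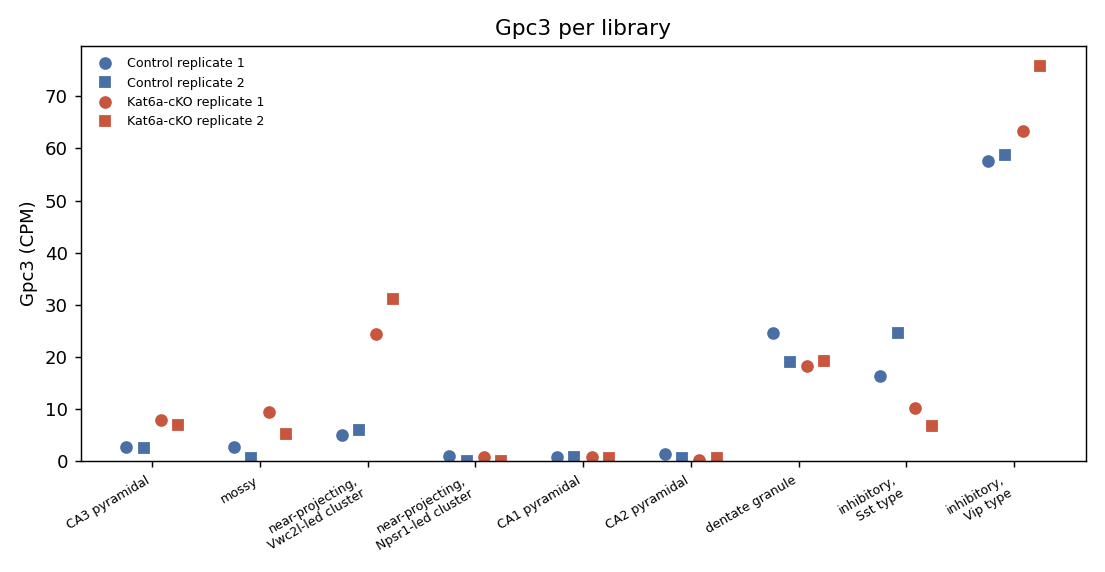
Gpc3 in CPM per library, on a linear axis from 0 (circles, replicate 1; squares, replicate 2; blue, Control; red, Kat6a-cKO). Vwc2l-led near-projecting nuclei stand at 4.98 and 6.09 CPM in Control against 24.4 and 31.2 CPM in Kat6a-cKO, and CA3 at 2.68 and 2.62 CPM against 7.86 and 7.05 CPM, whereas the groups overlap in CA1 and dentate granule nuclei.

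Dentate granule and CA1 nuclei did not show a higher Gpc3. Dentate granule nuclei had a log2 fold change of -0.21 (SE 0.13, edgeR adjusted p = 0.683), with 613 counts or more per library. The change in CA3 exceeded that in dentate granule nuclei by 1.68 (SE 0.20) and that in CA1 by 1.56 (SE 0.36), given without a test. Of all genes, 0.27% were called in the comparison of CA3 with dentate granule nuclei. Mossy nuclei had 2.79 and 0.646 CPM in Control against 9.47 and 5.16 CPM in Kat6a-cKO, from 1 to 15 counts a library, and were not tested. Both Kat6a-cKO libraries lay above both Control libraries, as for 16.2% of genes in mossy nuclei. Sst interneurons had 16.4 and 24.7 CPM in Control against 10.3 and 6.80 CPM in Kat6a-cKO (-1.24, SE 0.30, edgeR adjusted p = 0.610, with 0% of genes called).

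Gpc6 was not called in any class. The log2 fold changes were 0.06 (SE 0.11, edgeR adjusted p = 0.977) in astrocytes, 0.17 (SE 0.08, edgeR adjusted p = 0.604) in OPC and -0.01 (SE 0.06, edgeR adjusted p = 0.995) in inhibitory nuclei. In subicular near-projecting nuclei the class value was -0.56 (SE 0.35, edgeR adjusted p = 0.790), whereas the Vwc2l-led and Npsr1-led clusters alone gave 0.32 and 0.05. The class value passed the threshold in 2 of 11 alternatives. It did so with no filter on low counts (-0.55, edgeR adjusted p = 0.000429), where 1.13% of all genes were called, and without Control replicate 2 (-1.07). Without Control replicate 1 it was 0.27. Oligodendrocytes had 14.7 and 8.96 CPM in Control against 21.4 and 33.8 CPM in Kat6a-cKO (1.18, SE 0.28, edgeR adjusted p = 0.167), all under the 119 to 136 CPM of Gpc6 in free RNA. That difference passed the threshold without Control replicate 1 (1.64). It also passed with no filter on low counts (0.557% of all genes called) and with the replicate block (2.72%), against 0.00855% in the main fit. The astrocyte list was at 100.9 and 99.8 CPM in Control oligodendrocytes against 132 and 108 CPM in Kat6a-cKO, with no marker at 0, and its part was not tested. Subicular pyramidal nuclei had 1.52 and 4.50 CPM against 10.8 and 7.08 CPM (1.68, SE 0.50, edgeR adjusted p = 0.182), near the 6.57 to 9.79 CPM that free RNA could give. That value passed the threshold without Control replicate 2 (2.50, edgeR adjusted p = 0.0161) and without Kat6a-cKO replicate 2 (1.98, edgeR adjusted p = 0.0445), and turned to -0.04 with doublet calls kept. It also passed with no filter on low counts (1.09% of all genes called) and with the replicate block (3.28%), against 0.994% in the main fit.

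Gpc1 in CA3 was at 7.39 and 7.51 CPM in Control against 5.03 and 6.64 CPM in Kat6a-cKO. The log2 fold change was -0.34 (SE 0.18), and -0.20 (SE 0.20) without the mitochondrial subcluster. In CA1 it was at 1.97 and 2.63 CPM in Control against 2.79 and 3.10 CPM in Kat6a-cKO (0.38, SE 0.21, edgeR adjusted p = 0.696). Gpc2 passed the filter on low counts in no class.

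The wider heparan sulfate pathway was taken as 59 genes in 5 groups: release and sulfate removal, chain start and elongation, chain modification, other proteoglycan cores, and glypican-binding proteins. In CA3, 50 of them passed the filter on low counts. In that class Unc5d, a netrin receptor gene whose protein binds glypican 3, was at 51.2 and 60.4 CPM in Control against 97.2 and 99.8 CPM in Kat6a-cKO (0.83, SE 0.08). Its difference in CA3 was known when the list was drawn, and it is described without a test. The most abundant list genes of Control CA3 were Hs3st4, a heparan sulfate sulfotransferase, at 3550 and 4362 CPM, and Unc5c, a netrin receptor, at 2019 and 1856 CPM. Kat6a-cKO CA3 had 3976 and 4011 CPM of Hs3st4 and 2057 and 1936 CPM of Unc5c. The median log2 fold change of the list in CA3 was -0.00012, beside -0.0044 over all genes tested.

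In CA1, dentate granule and inhibitory nuclei 51 list genes were tested in each, in subicular near-projecting nuclei 47 and in CA2 45, and 0 were called in any of them. The list's median was 0.08 in CA1, 0.06 in dentate and 0.04 in inhibitory nuclei, beside medians over all genes of -0.0024, 0.0045 and 0.0013. None of 43 list genes in astrocytes, 44 in oligodendrocytes and 36 in microglia was called. These counts of 0 are of edgeR's calls in the main fit. Other settings with all 4 libraries called up to 5 list genes in these classes. That number was reached in CA1 with no filter on low counts, where 1.77% of all genes were called. Some fits with 1 library left out called more list genes.

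Mossy nuclei had 2 of 39 list genes called, where 0.602% of all genes were called. Both were higher and both encode receptors for heparan sulfate proteoglycans. Lrrtm4, the postsynaptic partner of glypican 4, rose from 330 and 282 CPM to 872 and 736 CPM (1.43, SE 0.13, edgeR adjusted p = 3.23e-05). It passed the threshold in all 10 alternatives that gave a mossy class, of which Leiden resolution 2 left the class unchanged. Ptprd, a receptor phosphatase of axons, rose from 960 and 827 CPM to 1316 and 1245 CPM (0.55, SE 0.11, edgeR adjusted p = 0.0259), and was lost with free RNA subtracted (0.0610). The class held 33 to 58 nuclei a library. Of 24 marker lists, 8 were higher and 5 lower in both of its Kat6a-cKO libraries. The mossy list of 6 genes summed to 486 and 535 CPM in Control against 396 and 399 CPM in Kat6a-cKO, and the CA1 list of 6 genes to 186 and 222 CPM against 130 and 125 CPM. The astrocyte list of 6 genes was at 35.3 and 26.5 CPM against 43.6 and 60.5 CPM. No marker of those lists was at 0, and the part of the lists in these calls was not tested.

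Subicular pyramidal nuclei had 3 list genes higher and 1 lower of 45, where 0.994% of all genes were called. Robo1, a Slit receptor, rose from 43.0 and 37.7 CPM to 170 and 147 CPM (1.98, SE 0.14, edgeR adjusted p = 5.36e-06). Hs3st4 rose from 14.5 and 11.8 CPM to 57.5 and 40.1 CPM (1.87, SE 0.24, edgeR adjusted p = 0.00123). Gpr158, the dendritic receptor of glypican 4, rose from 188 and 200.3 CPM to 279 and 278 CPM (0.54, SE 0.10, edgeR adjusted p = 0.0118). Unc5c fell from 2458 and 2074 CPM to 1752 and 1497 CPM (-0.46, SE 0.10, edgeR adjusted p = 0.0289). All 4 calls were lost at Leiden resolution 2 and with doublet calls kept, where the adjusted p reached 0.744 for Robo1 and 0.786 for Hs3st4. Without Control replicate 1 the calls of Gpr158 (0.0547) and Unc5c (0.0696) were also lost, and that of Unc5c was lost with DESeq2 and with free RNA subtracted. Marker lists of subicular neurons and of CA1 also differed in level between the groups. The list of 5 genes that names the class was at 620 and 579 CPM in Control against 512 and 485 CPM in Kat6a-cKO, with none at 0. The near-projecting list, with 1 of its 5 genes at 0, was at 1538 and 1476 CPM against 1027 and 1042 CPM, and the CA1 list of 6 genes, none at 0, at 462 and 433 CPM against 409 and 400.3 CPM. In all 3 of 24 lists were higher and 6 lower in both Kat6a-cKO libraries, and their part in the calls was not tested.

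OPC had 1 of 46 list genes called, where 0.264% of all genes were called. This was Hs3st4, which rose from 17.4 and 18.0 CPM to 39.4 and 38.6 CPM (1.16, SE 0.27, edgeR adjusted p = 0.0322). Free RNA could make up at most 45.1% to 59.0% of the OPC UMIs, and it was not subtracted there. Hs3st4 is abundant in CA3, and the part of free RNA in the call was not tested. Without Control replicate 1, Control replicate 2 or Kat6a-cKO replicate 1 the call was lost (edgeR adjusted p of 0.126, 0.147 and 0.213), as it was with DESeq2. Of 24 marker lists, 4 were higher and 2 lower in both Kat6a-cKO libraries of OPC, the OPC list itself overlapped, and their part in the call was not tested.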

How the data were processed

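Nuclear RNA of the hippocampus was measured in 4 libraries, 2 Control and 2 Kat6a-cKO, grouped by the genotype and title in the labels. The authors deposited raw UMI counts per barcode and gene for all observed barcodes, as whole numbers. The submitters' processing notes name the build mm10 and Seurat 4.0.1. The aligner, the counter, the annotation release and the counting strand are not given in the sources used here. The glypicans, the gene lists and the tests were chosen with earlier results of these data known, among them the differences of Gpc3 and Unc5d in CA3.

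Barcodes with at least 5000 UMIs (neuronal classes) or 1000 UMIs (glial classes) were taken as nuclei, and doublets called by Scrublet in scanpy 1.11.5 were left out. Counts were scaled to 10000 UMIs and log-transformed. Then 30 principal components of 2000 variable genes and 15 neighbours were clustered by Leiden (leidenalg 0.10.2, resolution 1). The glypicans, the pathway list, Kat6a, Neurod6, Rspo2, the cre entry and mitochondrial genes were left out of the clustering. A cluster took a class name where at least 50% and at least 3 of its markers were raised 2-fold, with 5 CPM added, and no other class led its 10 leading genes. These thresholds were picked with the data in view.

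UMI counts were summed per library and class, and classes with 30 or more nuclei in each of the 4 libraries were tested. The test was edgeR 4.0.16 (R 4.3.3), quasi-likelihood, with TMM and filterByExpr. CPM values carry no TMM scaling. Differences between classes were tested as the interaction of class and genotype with the library as a block. Alternatives were DESeq2 1.42.0, no filter, each library left out, a replicate block, UMI minimums of 10000 and 2000, Leiden resolution 2, doublet calls kept, and free RNA subtracted. Others, chosen after seeing the data, were single clusters of CA1, dentate granule, inhibitory and near-projecting nuclei, CA3 without its mitochondrial subcluster, and CA3 with a Calcrl-led cluster added. The test script was tested on simulated data.

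Named were the 6 glypicans in every class, pathway genes past the threshold (at most 6 a class), the 2 most abundant pathway genes of Control CA3, and the 3 genes most like each glypican over 12 classes. Genes like Gpc2 are not named, since it had 0 to 2 counts per library. Counting error and floors cover sampling of UMIs only.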

Additional observations from a re-analysis of the deposited data

Results flagged for a closer look

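In all, 2 differences between classes in the change of a glypican with genotype stood out, both between CA1 and dentate granule nuclei. That comparison, the only one made without CA3, called 0.196% of all genes. Gpc1, Gpc3 and Gpc6 did not pass the threshold in it. The change of Gpc5 in CA1 was below that in dentate granule nuclei by a log2 difference of -0.78 (SE 0.07, edgeR adjusted p = 0.000437), with lower Gpc5 in both Kat6a-cKO libraries of CA1 and higher Gpc5 in both of dentate granule nuclei, where the level is one that free RNA could give. That of Gpc4 was higher in CA1 than in dentate granule nuclei by 0.52 (SE 0.07, edgeR adjusted p = 0.0134). Differences that involve CA3, where a glypican was known to differ, carry no test and are not listed.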

How the results depend on the processing

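Of 452 refitted log2 fold changes of a glypican in a class other than CA3, 374 kept their direction and side of the threshold, 46 kept the direction and passed it, and 32 changed sign. Leiden resolution 2 left the mossy, near-projecting, inhibitory and OPC classes unchanged, so their values at that setting could not move. The count of glypicans called, 0 in each of these 11 classes with edgeR, came to 1 with DESeq2 in CA1, CA2 and inhibitory nuclei and 2 in subicular near-projecting nuclei. With no filter on low counts it was 1 in CA2 (0.406% of all genes called), subicular pyramidal (1.09%), inhibitory (0.557%) and oligodendrocyte nuclei (0.557%), 2 in CA1 (1.77%) and 3 in near-projecting nuclei (1.13%). It was 1 in near-projecting nuclei at the higher UMI minimum (0.0488%) and 1 in CA2 at Leiden resolution 2 (0.0566%). With 1 library left out it ranged from 0 to 1 in CA1, CA2, mossy, subicular pyramidal, inhibitory and oligodendrocyte nuclei and from 1 to 3 in near-projecting nuclei, while 0.0166% to 3.26% of all genes were called in those fits. Such a fit leaves 1 library alone in its group, which is assumed to vary like the others. With a replicate block the count was 1 in CA1 (0.054% of all genes called), subicular pyramidal (3.28%) and oligodendrocyte nuclei (2.72%) and 2 in near-projecting nuclei (1.47%). The labels number the replicates 1 and 2 in both groups but do not say that a number pairs them, and the deviations of same-numbered libraries correlated at 0.03 to 0.18.

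Gpc3 in CA1 was 0.021 at the higher UMI minimum, 0.041 with doublet calls kept and 0.13 with free RNA subtracted. Gpc1 in dentate granule nuclei was -0.012 without a filter, -0.019 with the replicate block, -0.17 at the higher UMI minimum and -0.23 with free RNA subtracted. Gpc4 in near-projecting nuclei was 0.029 with DESeq2, 0.054 with the replicate block and 0.43 with free RNA subtracted. Gpc5 in subicular pyramidal nuclei was -0.23 at Leiden resolution 2 and -0.20 with doublet calls kept, where Gpc6 was -0.043 and Gpc4 in astrocytes -0.19. Gpc6 in near-projecting nuclei was 0.32 and 0.053 in its 2 clusters, Gpc3 in inhibitory nuclei was 0.11 in the Cck type and 0.26 in the Vip type, and the CA1 minus dentate difference of Gpc3 was -0.031 at Leiden resolution 2. The cause was not tested.

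Of 61 Control levels of a glypican in a class, 0 moved by more than 1.5 times at the higher UMI minimum and 5 at Leiden resolution 2, 4 of them in subicular pyramidal nuclei. With doublet calls kept 13 of 56 did, 4 of them in subicular pyramidal nuclei, where Gpc4 went from 3.77 to 18.0 CPM and Gpc1 from 2.27 to 4.03 CPM. In that setting Gpc4 was at 3.54 CPM in CA3 and 14.1 CPM in near-projecting nuclei, and Gpc3 at 1.97 CPM in OPC and 3.75 CPM in astrocytes, against 2.20, 8.47, 0.41 and 0.49 CPM.

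With 1 library left out, signs turned within these ranges: Gpc6 in CA3 -0.0093 to 0.56, in CA1 -0.0024 to 0.24, in mossy -0.41 to 1.05, in near-projecting -1.07 to 0.27, in inhibitory -0.023 to 0.0087 and in astrocyte nuclei -0.0072 to 0.13. Gpc3 ran from -0.30 to 0.19 in CA1 and -0.40 to 0.0048 in dentate granule nuclei, and Gpc1 from -0.39 to 0.31 in dentate granule, -0.11 to 0.030 in near-projecting and -0.040 to 0.17 in inhibitory nuclei. Gpc4 in near-projecting nuclei ran from -0.53 to 1.13 and Gpc5 in mossy nuclei from -1.16 to 0.10.

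Counts of all genes called moved by more than 1.5 times in every class. Over all alternatives, single libraries left out included, they ranged from 1 to 420 in CA3 (4 with edgeR and all libraries), 1 to 500 in CA1 (4), 0 to 91 in CA2 (3), 0 to 609 in dentate granule (65), 37 to 209 in mossy (56), 0 to 425 in near-projecting (4) and 5 to 340 in subicular pyramidal nuclei (103). In inhibitory nuclei they ranged from 0 to 148 (4), in astrocytes 0 to 156 (19), in oligodendrocytes 1 to 318 (1), in OPC 0 to 46 (26) and in microglia 0 to 102 (7). Free RNA was not subtracted in glial classes, since dentate markers set no usable bound there, and keeping doublet calls gave no mossy class. Low counts limit Gpc3 in CA1, CA2, mossy and glial nuclei, and Gpc2 in all classes.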
